A study of Mus musculus with 18 samples.

Results

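Bivalent sites are stretches of chromatin where H3K4me3, a mark of active and poised promoters, and H3K27me3, the mark laid down by Polycomb repressive complex 2, were both called. In the wild-type (WT) mouse hippocampus, 655 of 25145 H3K4me3 peaks (2.605%) overlapped an H3K27me3 peak by at least 1 bp, and these 655 peaks are described here. They met 654 of the 4124 WT H3K27me3 peaks (15.86%) and formed 519 loci when peaks up to 10 kb apart were joined. The members were chosen by the WT peak calls of both marks, so those calls describe the sites and test nothing.

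RNA-seq and ChIP-seq were done on hippocampi from C57BL/6 animals of 2 genotypes, WT and Arid1a conditional knockout (cKO). Arid1a is a DNA-binding subunit of the BAF chromatin remodelling complex. RNA was measured at 3 weeks after birth (P21, 2 WT and 2 cKO libraries) and at embryonic day 16.5 (E16.5, 3 WT and 3 cKO libraries), with biological replicates per the series design. ChIP-seq, at 3 weeks, has a single library of each genotype for H3K4me3, H3K27me3, input and H3K27ac, which marks active regulatory elements. The Cre driver, the Arid1a allele, the sex of the mice and any pooling of animals are not given in the sources used here.

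In embryonic stem cells bivalency is known as the state of silent promoters of developmental regulators, which hold CpG-rich DNA, low transcription and both marks. On differentiation such promoters are known to resolve towards either mark. BAF complexes are known to oppose Polycomb, and Polycomb complexes are known to gather at CpG islands. In bulk tissue, both marks on the same chromatin and each mark in different cells cannot be told apart.

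Not all of the 655 sites were promoters. Gene starts were taken from RefSeq (GRCm38.p6) for 631 of the peaks, the other 24 lying on a chromosome whose starts were not used here. Of the 631, 357 (56.58%, Wilson 95% interval 52.68 to 60.39%) lay within 1 kb of a start and 194 held a start. Another 228 lay over 1 kb from a start but within a gene, and 46 lay outside genes, with a median distance of 11624 bp for these 274 peaks. Among the 23747 other WT H3K4me3 peaks with starts, 60.42% lay within 1 kb of a start. The name bivalent promoter therefore holds for 357 of the 631 sites, and the rest are called bivalent peaks.

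The promoters at 5 genes on which the RNA results turn are shown as the 250 bases before the RefSeq start, 5′ to 3′, with CG dinucleotides in capitals, since CpG density is the feature most linked to this chromatin state. Twist1 and En1 are genes whose RNA was higher in cKO at P21 and whose start lay 397 bp outside the bivalent peak. Id3 was higher too, Dsp and Egr4 were lower, and the starts of these 3 genes lay inside the peak.
Twist1, chr12:33957421-33957670, plus strand: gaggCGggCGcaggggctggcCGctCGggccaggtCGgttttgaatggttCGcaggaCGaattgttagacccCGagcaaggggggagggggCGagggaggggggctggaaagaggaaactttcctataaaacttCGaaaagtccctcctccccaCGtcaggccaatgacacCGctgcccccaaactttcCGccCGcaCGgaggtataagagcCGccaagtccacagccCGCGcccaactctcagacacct
En1, chr1:120602237-120602486, plus strand: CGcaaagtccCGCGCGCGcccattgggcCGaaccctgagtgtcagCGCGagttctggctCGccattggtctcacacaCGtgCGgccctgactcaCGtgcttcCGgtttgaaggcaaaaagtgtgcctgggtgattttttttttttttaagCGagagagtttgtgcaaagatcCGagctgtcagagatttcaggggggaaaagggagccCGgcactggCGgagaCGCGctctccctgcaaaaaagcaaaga
Id3, chr4:136143572-136143821, plus strand: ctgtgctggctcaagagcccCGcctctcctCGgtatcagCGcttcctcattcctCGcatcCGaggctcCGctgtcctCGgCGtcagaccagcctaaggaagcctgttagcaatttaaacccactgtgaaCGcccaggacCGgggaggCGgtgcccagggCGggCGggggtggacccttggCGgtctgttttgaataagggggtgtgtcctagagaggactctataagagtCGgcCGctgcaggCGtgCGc
Dsp, chr13:38151044-38151293, plus strand: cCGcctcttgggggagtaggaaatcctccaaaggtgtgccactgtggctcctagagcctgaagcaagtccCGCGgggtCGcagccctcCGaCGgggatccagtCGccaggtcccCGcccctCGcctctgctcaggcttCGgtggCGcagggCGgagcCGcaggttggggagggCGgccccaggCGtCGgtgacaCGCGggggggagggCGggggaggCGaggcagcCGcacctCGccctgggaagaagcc
Egr4, chr6:85513590-85513839, minus strand: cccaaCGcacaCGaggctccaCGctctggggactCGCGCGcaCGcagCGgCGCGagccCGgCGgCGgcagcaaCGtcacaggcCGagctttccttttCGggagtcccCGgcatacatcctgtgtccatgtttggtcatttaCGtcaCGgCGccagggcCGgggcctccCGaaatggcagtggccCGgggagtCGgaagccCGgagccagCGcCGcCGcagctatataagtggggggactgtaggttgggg

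These windows held 18 CG dinucleotides at Twist1, 19 at En1, 18 at Id3, 22 at Dsp and 28 at Egr4. The genes that rose and those that fell are both CpG-rich here. Over the whole table, windows of 300 bases (250 before and 50 after a start) were compared. The 351 starts at bivalent peaks had a median of 22 CG dinucleotides, 65% G or C, and an observed-to-expected CpG ratio of 0.72. Starts at other WT H3K4me3 peaks (13655) had 22, 62.3% and 0.78, and all 32851 starts had 7, 52.7% and 0.38. A ratio over 0.6 was found at 69.8% of starts at bivalent peaks, 76.1% of starts at other H3K4me3 peaks and 5.91% of the 18845 starts at neither. The motif TATAAA, on either strand, was present in 7.98% of windows at bivalent peaks, 5.95% at other H3K4me3 peaks and 13.6% of all windows.

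In WT, the H3K4me3 peaks at bivalent sites were short and weak within their list. Their median length was 429 bp against 682 bp for the other 24490 peaks, and their median fold enrichment over input, the authors' value, was 5.82 against 9.03. Of the bivalent peaks, 201 had a fold under 5 and 6 a fold of 15 or more, while of the other peaks 14.7% had a fold of 15 to 20 and 6.24% a higher one. The H3K27me3 peaks they met had a median length of 532 bp and a median fold of 4.86, against 487.5 bp and 5.03 for the 3470 H3K27me3 peaks away from H3K4me3. The overlap covered a median of 78.6% of the H3K4me3 peak. The members nearest the limit overlapped by 1, 2 and 2 bp, and the nearest peaks outside it lay 2, 4 and 6 bp from an H3K27me3 peak. In all, 20 members overlapped by under 50 bp and 69 peaks outside lay within 200 bp.

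**Figure D1:**
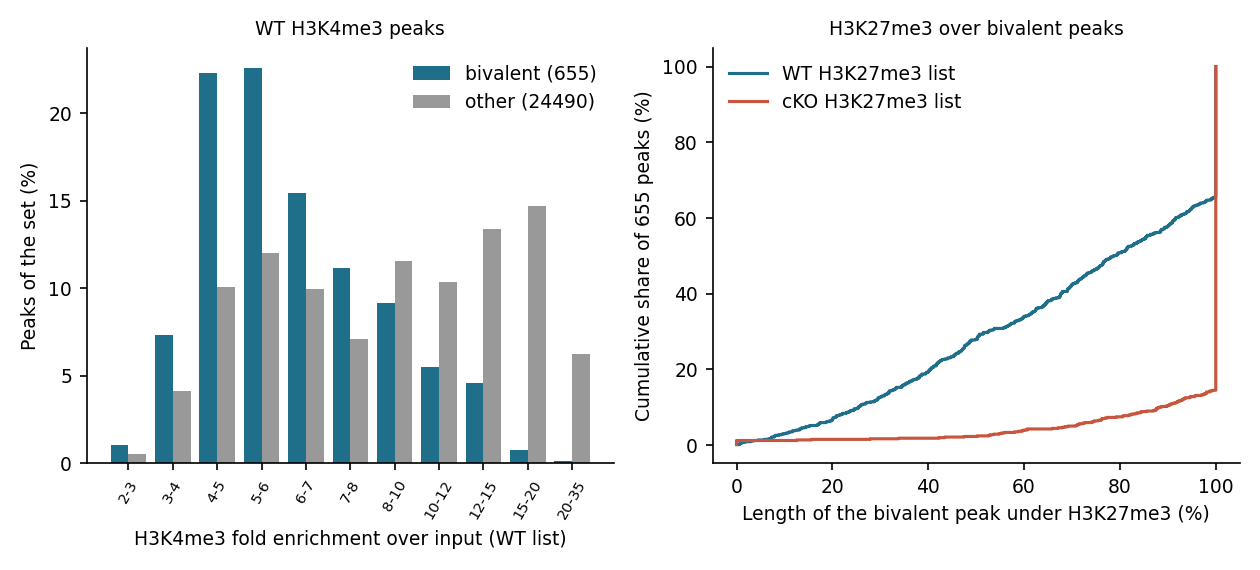
Left, the share of bivalent (655) and other (24490) WT H3K4me3 peaks in bins of the authors' fold enrichment over input. Right, the cumulative share of the 655 bivalent peaks against the part of their length under an H3K27me3 peak of the WT or cKO list; in the cKO list most peaks sit at 100%, and over all members 93.64% of the length is covered against 59.61% in WT.

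Of the 519 loci, 418 held 1 bivalent peak, 84 held 2 and 17 held 3 or more. The largest, with 14 peaks in 19.1 kb of chromosome 14, lay at Zic5, a zinc finger factor of the neural tube and cerebellum. All 14 were overlapped by cKO H3K27me3 and 13 by cKO H3K4me3. Loci of 4 peaks lay at Meis1, a homeobox factor, at Sox2, the neural stem cell factor, and at Lef1, a nuclear effector of Wnt signalling. These loci were picked after their values were seen. Peaks of 1 locus share their chromatin domain and are not independent.

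Of the 8 genes with the highest WT H3K27me3 fold at a bivalent peak, 6 encode transcription factors. The peak 445 bp from the start of Foxe3, a lens forkhead factor, at chr4:114925456-114925622 (GRCm38), had an H3K27me3 fold of 11 and an H3K4me3 fold of 4.2. Lhx6, a LIM-homeobox factor of interneurons, had an H3K27me3 fold of 10.1 at chr2:36104991-36105381 and an H3K4me3 fold of 7.1. Bnc1, a zinc finger factor of epithelia, had 9.93 and 10.1 for the same marks. These peaks were wholly under H3K27me3 in both genotypes and kept an H3K4me3 peak in the cKO list. Gsc2, a goosecoid-like homeobox factor, with a WT H3K27me3 fold of 9.59, and Syt6, a synaptotagmin, with 9.25, were also wholly under H3K27me3 but met no cKO H3K4me3 peak.

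The first question was what became of both marks at these sites without Arid1a. H3K27me3 was called again at 647 of 655 (98.78%, 97.61 to 99.38%) and H3K4me3 at 597 (91.15%, 88.72 to 93.09%). Both marks were called at 589 (89.92%), H3K27me3 alone at 58 (8.855%) and H3K4me3 alone at 8 (1.221%). None of the 655 lost both, which allows a share of up to 0.458%. The intervals and this limit cover counting error only, since each list comes from 1 library.

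These shares were near those of the marks elsewhere. A cKO H3K27me3 peak was called at 97.78% (97.24 to 98.22%) of WT H3K27me3 peaks away from H3K4me3, and a cKO H3K4me3 peak at 91.21% (90.85 to 91.56%) of the other WT H3K4me3 peaks. The cKO lists were longer. H3K27me3 covered 13.04 Mb in 15659 peaks against 2.86 Mb in 4124 in WT, and H3K4me3 covered 24.5 Mb in 28234 peaks against 21.06 Mb. The cKO lists were then shortened to the WT number of peaks by q-value. With these, 94.05% of bivalent peaks met H3K27me3 against 91.33% of WT H3K27me3 peaks away from H3K4me3. For H3K4me3 the shares were 87.79% and 88.94% of other peaks. The shortened lists still covered 8.083 Mb for H3K27me3 and 23.72 Mb for H3K4me3, so the number of peaks was made equal but not their length. The ChIP libraries held 17399169 to 19291198 tags, so the tag number was similar where the number of peaks was not. A difference between genotypes and one between single libraries cannot be told apart.

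Within bands of H3K4me3 fold the order differed. Of bivalent peaks with a fold under 5, 83.58% (77.84 to 88.06%) met a cKO H3K4me3 peak, against 73.7% (72.24 to 75.11%) of other peaks in that band. From 5 to 8 the shares were 92.86% (89.51 to 95.19%) and 83.84% (82.97 to 84.68%). From 8 upwards they were 98.48% (94.64 to 99.58%) and 99.61% (99.49 to 99.7%). In both lower bands the share was thus higher at bivalent peaks in these lists, and the intervals did not meet. The intervals treat peaks as independent, which peaks of 1 locus are not, and each list comes from 1 library. By position, 92.72% of bivalent peaks near a start met cKO H3K4me3 against 96.93% of other peaks near a start, and beyond 1 kb the shares were 88.69% and 82.68%.

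H3K27me3 covered more of the sites' summed length in cKO. The bivalent peaks span 379.7 kb, of which 226.4 kb (59.61%) lay under WT H3K27me3 peaks and 355.6 kb (93.64%) under cKO ones. By site, 411 peaks were covered over a longer stretch in cKO, 224 over the same length and 20 over less. H3K4me3 of the cKO list covered 320.8 kb (84.48%). The rule fixes the WT coverage by H3K4me3 at 100%, so its fall is no measure of loss. At the sites that kept H3K4me3 alone, Rbms3, an RNA-binding protein, Itga1, an integrin chain, and Mctp2, a calcium-binding membrane protein, had WT H3K27me3 folds of 6.29, 4.57 and 4.15.

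H3K27ac was rare at these sites. In WT it was called at 8 of 655 (1.221%, 0.6202 to 2.391%) against 35.24% of other H3K4me3 peaks, and in cKO at 104 (15.88%, 13.28 to 18.87%) against 56.45%. All 8 with WT H3K27ac had it in cKO as well. They include the peaks at Egr4 and Trank1, at Nfe2l2, the regulator of the oxidative stress response, at Prdm8, a zinc finger factor of neurons, and at Plcb4, a phospholipase C. H3K27ac in cKO alone was found at 96 bivalent peaks (14.66%) and at 22.77% of other H3K4me3 peaks. Both are shares of all peaks in the set. The peaks with WT H3K27ac, 1.221% of bivalent and 35.24% of other peaks, could not count towards them. The H3K27ac list was longer in cKO too, with 11.56 Mb in 24065 peaks against 5.172 Mb in 13006. In each band of H3K4me3 fold the cKO share stayed lower at bivalent peaks, at 7.96% against 20.25% under 5, 15.22% against 29.84% from 5 to 8, and 29.55% against 79.68% above.

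**Figure D2:**
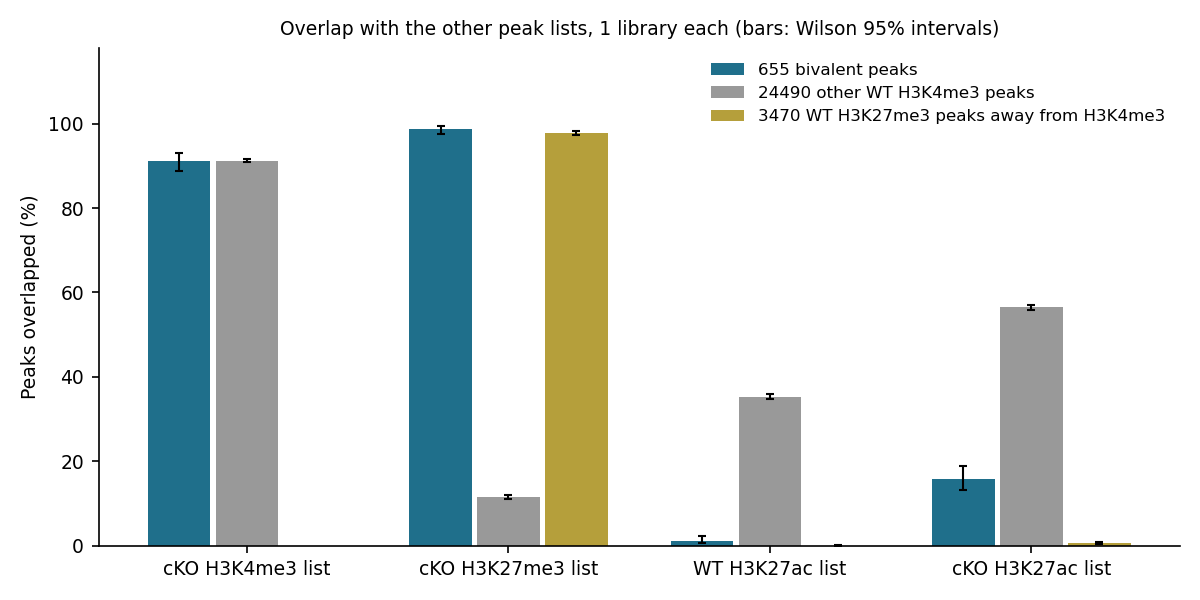
Share of peaks that overlap a peak of 4 other lists by at least 1 bp, for the 655 bivalent peaks, the 24490 other WT H3K4me3 peaks and the 3470 WT H3K27me3 peaks away from H3K4me3 (not drawn for cKO H3K4me3). Error bars are Wilson 95% intervals over peaks; H3K27me3 was called again at 98.78% of bivalent peaks and H3K27ac at 15.88% in cKO.

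The same overlap rule found 4259 peaks with both marks among the 28234 cKO H3K4me3 peaks (15.08%). Of these, 596 met a WT bivalent peak and 3663 did not.

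The 357 peaks near a start gave 325 genes, of which 302 were in the RNA tables. Of these 302, 270 were protein coding (89.4%) and 29 lncRNA (9.6%), against 91.8% and 7.83% of the 11010 genes at other WT H3K4me3 peaks. Transcription factors on lists of 9 developmental families, which are not complete, made up 50 of the 302 (16.6%), against 102 of the 11010 (0.926%). They included 13 homeobox genes of the NK, Dlx, Irx and other classes such as En1, Dbx2, Irx3 and Nkx2-2, 12 zinc finger factors such as Egr4 and Zic5, and 7 forkhead genes such as Foxc1 and Foxl2. The basic helix-loop-helix list gave 6 (Twist1, Id3, Id4, Neurog2, Ebf1 and Ebf3), the paired-like list 6, and the Sox list 3 (Sox2, Sox6 and Sox21). No Hox, T-box or GATA gene was among the 302, but genes near the 24 peaks on the chromosome without starts could not be assigned. Signalling lists gave 10 Wnt pathway genes and 6 of the BMP and TGF-beta family. No subunit of Polycomb, of the H3K4 methyltransferase complexes or of BAF was among the 302.

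Arid1a RNA was lower in the cKO libraries at both ages. At P21 it stood at 215 and 205 CPM (counts scaled to 1 common, TMM-adjusted library size) in WT and 110.0 and 89.2 in cKO, which is a change of -1.08 in log2 units by edgeR (SE 0.13, adjusted p = 0.00507). The E16.5 levels were 262, 282 and 285 CPM in WT and 180.0, 175 and 176 in cKO, a change of -0.64 (SE 0.06, adjusted p = 0.032). The P21 libraries summed to between 20089631 and 20332148 estimated counts, the E16.5 libraries to between 17662335 and 19760764.

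At P21, 229 of the 302 genes passed the filter on low counts (75.83%, against 93.32% of genes at other H3K4me3 peaks), and 10 of the 302 had no count in any library. Of the 229, 14 rose and 10 fell in cKO at an edgeR adjusted p under 0.05. That is 10.5% of those tested, beside 6.72% of all 17407 genes tested (2.81% higher, 3.91% lower) and 5.58% of genes at other H3K4me3 peaks. The median log2 change of the 229 was 0.17, beside 0.01 for all genes, with 138 above 0 and 91 below. Groups did not overlap for 135 of the 229 (59%), beside 56.1% of all genes, a share near the background. Fewer cells of a type and less RNA per cell cannot be told apart in these bulk samples.

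The count rested on few libraries. It was 7 higher (and 8 lower) without WT replicate 1, 4 higher (and 6 lower) without WT replicate 2, 28 without cKO replicate 1 and 25 without cKO replicate 2, where the lone library left is assumed to vary like the other group. The lower count was 19 without cKO replicate 1. More genes were thus higher than lower with all 4 libraries, and fewer with either WT library left out. In 1 fit of all 10 libraries 1 gene was higher and 4 lower, and 3 of the 22 calls named here held there (Mal, Ddah1 and Pde8a). When single libraries were left out, calls of these 22 genes were lost mainly in the fits without a WT library. The fits without a cKO library called more of all genes than the fit of all 4 libraries, so calls kept there say little. The authors' deposited table has 17 genes at bivalent peaks as higher and 11 as lower, with 23 called in both analyses.

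Transcription factors and their antagonists were among the genes that rose at P21. Twist1, a helix-loop-helix factor of mesenchyme, measured 2.05 and 1.60 CPM in WT and 13.4 and 11.3 in cKO. Both cKO libraries lay far above both WT libraries, and the change by edgeR was 2.75 (SE 0.23, adjusted p = 0.00175). It passed in 8 of 9 alternatives, and the fit of all 10 libraries gave an adjusted p of 0.216 (6.56e-13 to 0.216 over the 9). Id3, an inhibitor of helix-loop-helix factors, measured 11.5 and 7.07 CPM in WT and 23.0 and 28.3 in cKO, without overlap. Its change was 1.47 (SE 0.24, adjusted p = 0.0195, with 6.97e-06 to 0.158 over the alternatives).

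En1, the homeobox factor of the midbrain-hindbrain border, was counted 2 times and 0 times in the WT libraries, 24 and 22 times in the cKO libraries. Its adjusted p was 0.0216 by edgeR, and the ratio of summed counts, scaled to library size, was 22.9 (exact 95% interval 5.98 to 195, counting error only). Its level remained low, at 1.16 and 1.10 CPM in cKO. Its bivalent peak was the only 1 of the 24 called genes' peaks without an H3K4me3 peak in the cKO list. Tgif1, a homeodomain corepressor of TGF-beta signalling, measured 1.45 and 1.25 CPM in WT and 3.86 and 4.21 in cKO (log2 1.57, SE 0.28, adjusted p = 0.0214).

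Casz1, a zinc finger factor, measured 3.11 and 2.56 CPM in WT and 6.07 and 6.77 in cKO, a change of 1.18 (SE 0.23, edgeR adjusted p = 0.0278). Sox2 measured 30.9 and 28.5 CPM in WT and 42.6 and 41.3 in cKO. Its groups did not overlap, and its change of 0.50 (SE 0.11, adjusted p = 0.0416) was the smallest of the 14. Among signalling genes, Bmp6, a BMP ligand, measured 9.52 and 9.03 CPM in WT and 16.5 and 16.6 in cKO, a change of 0.83 (SE 0.15, adjusted p = 0.0196). Lfng, a glycosyltransferase that modifies Notch, changed by 0.71 (SE 0.17, adjusted p = 0.0457); it and the model gene Gm5089 (1.85, adjusted p = 0.03) lay outside the naming rule and were added after their values were seen, to complete the 14.

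The other genes that rose were of varied function. Cldn5, the tight junction claudin of brain endothelium, measured 11.5 and 8.77 CPM in WT and 18.5 and 18.3 in cKO (log2 0.86, SE 0.17, edgeR adjusted p = 0.028). Slc9a3, a sodium-proton exchanger, measured 1.0 and 0.953 CPM in WT and 4.96 and 5.77 in cKO (log2 2.45, SE 0.28, adjusted p = 0.00461). Hs3st3a1, a heparan sulfate sulfotransferase, Map3k21, a MAP kinase kinase kinase, and Plekhd1 changed by 2.32, 1.16 and 1.01. The 9 endothelial markers, Cldn5 among them, summed to 285 and 242 CPM in the WT libraries against 366 and 383 in the cKO libraries. Of the 9, 3 passed the test as higher and 1 as lower, and none was at 0 in every library. Their part in the result was not tested.

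Among the 10 genes that fell at P21, Dsp is on a cell type marker list and Mal is known from myelin. Mal, a proteolipid of myelin, measured 407 and 460.1 CPM in WT and 235 and 178 in cKO, without overlap (log2 -1.07, SE 0.15, edgeR adjusted p = 0.00913). Oligodendrocyte markers fell alongside, with 11 of 15 past the threshold as lower and a summed 7733 and 8320 CPM in WT against 4933 and 4566 in cKO. Dsp, a desmosomal plaque protein and marker of dentate granule neurons, measured 66.6 and 86.2 CPM in WT and 25.4 and 14.8 in cKO (log2 -1.92, SE 0.30, adjusted p = 0.0353). Of the 9 dentate granule markers, Dsp included, 6 passed as lower, with a summed 566 and 600 CPM in WT and 311 and 306 in cKO. Other marker lists moved at P21 as well. Of 12 microglial markers 7 passed as lower (summed 357 and 322 CPM in WT, 205 and 215 in cKO), and of 11 astrocyte markers 4 passed as lower and 1 as higher (3975 and 3955 against 3526 and 3429). Of 12 CA pyramidal markers 5 passed as higher (928 and 900.4 against 1108 and 1548), and the choroid plexus and ependyma list stood at 3705 CPM in cKO replicate 1 against 1077 to 1451 in the other P21 libraries. The part of these cell types in the results at P21 was not tested, and in none of these lists was a marker at 0 in every library.

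Papss2, which makes the sulfate donor for sulfotransferases, measured 14.4 and 15.1 CPM in WT and 3.09 and 4.16 in cKO. Its change of -2.02 (SE 0.20, edgeR adjusted p = 0.0031) was the largest of the 10. Ddah1, which breaks down inhibitors of nitric oxide synthase, measured 87.7 and 78.6 CPM in WT and 36.1 and 48.3 in cKO (log2 -0.98, SE 0.15, adjusted p = 0.0129). Pde8a, a cAMP phosphodiesterase, measured 16.7 and 17.7 CPM in WT and 8.10 and 6.87 in cKO (log2 -1.20, SE 0.16, adjusted p = 0.00814). Mal, Ddah1 and Pde8a passed in 9 of 9 alternatives tried, more than any other of the 22 named genes.

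Egr4, an activity-induced zinc finger factor, measured 46.3 and 46.0 CPM in WT and 25.7 and 28.6 in cKO, a change of -0.76 (SE 0.11, edgeR adjusted p = 0.0117). Its peak at chr6:85511865-85513602 carried H3K27ac in both genotypes, and 29.46% of it lay under H3K27me3 in WT and 100% in cKO. Trank1 measured 163 and 185 CPM in WT and 107 and 111 in cKO (log2 -0.67, SE 0.11, adjusted p = 0.0156), and its peak also carried H3K27ac in both. H3K27me3 covered 16.78% of the Trank1 peak in WT and 90.31% in cKO. Longer coverage in cKO was not particular to Egr4 and Trank1, since it was found at 411 of the 655 bivalent peaks. Over all of them the covered length was 59.61% in WT and 93.64% in cKO. Its relation to the RNA of these genes was not tested. Sgpp2, a sphingosine-1-phosphate phosphatase, Efhd1, a calcium-binding protein of mitochondria, and Col27a1, a fibrillar collagen, changed by -1.74, -1.33 and -1.07.

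**Figure D3:**
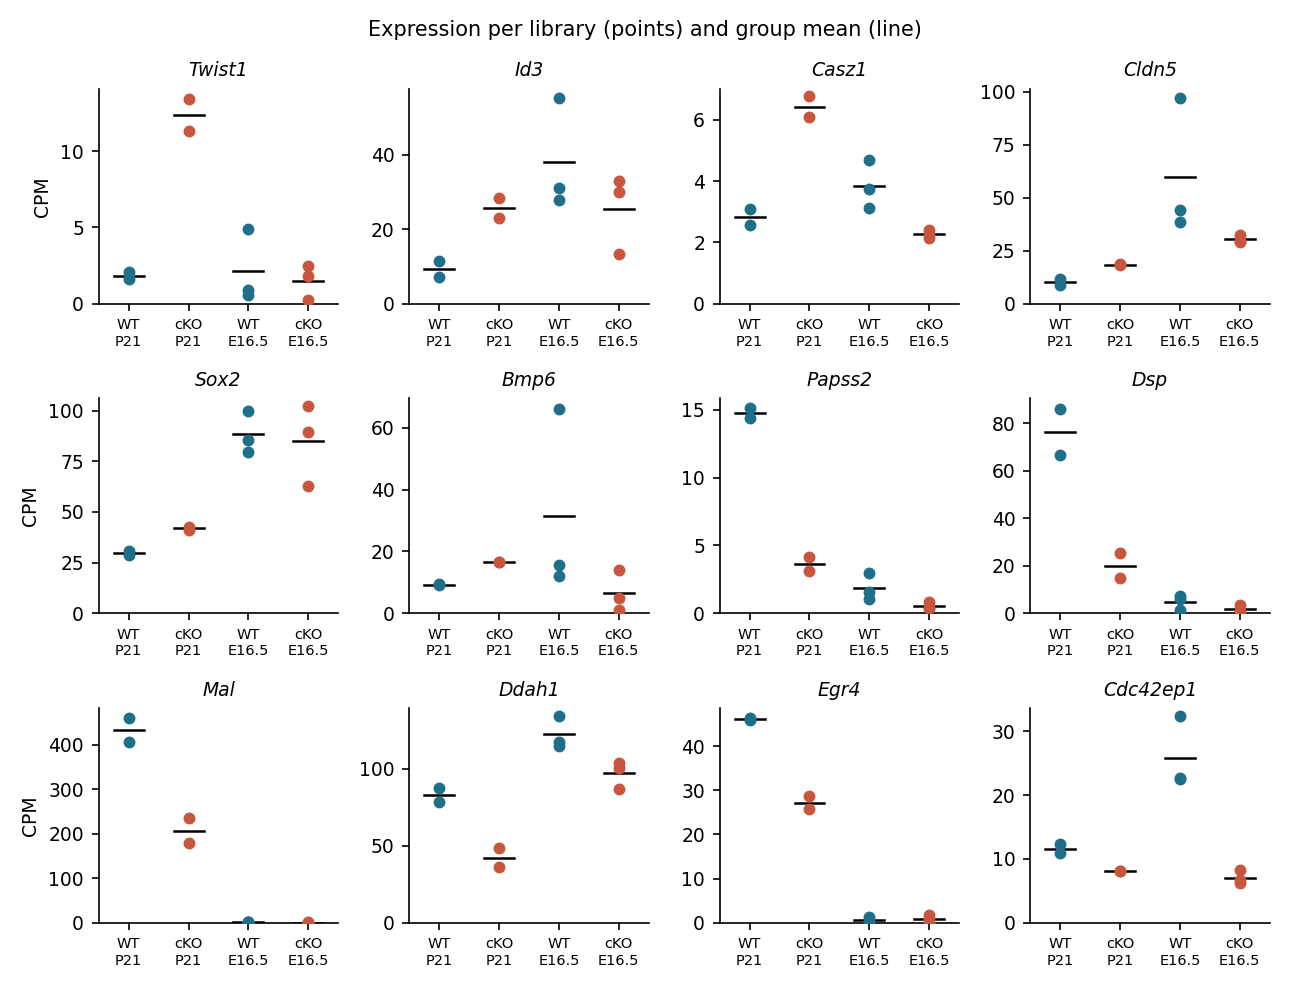
CPM per library of 12 genes at bivalent peaks in WT and cKO at P21 (2 libraries each) and E16.5 (3 each), each panel with its own axis from 0. Points are libraries and lines group means; Twist1 stands at 13.4 and 11.3 CPM in P21 cKO, above all other libraries, and Bmp6 and Cldn5 are high in WT E16.5 replicate 1.

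Among these 24 genes, both marks were called in cKO at 13 of the 14 that rose and 10 of the 10 that fell, and H3K27ac in cKO at 6 and 4. By H3K27ac, 10 of 58 tested genes with the mark in cKO were called (17.2%), and 14 of 171 without it (8.19%); whether these shares differ was not tested. For the 18 genes whose bivalent peaks met no cKO H3K4me3 peak, 8 could be tested and 1, En1, was called.

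Among the 35 tested transcription factor genes on the lists of the 9 families, 4 rose (En1, Twist1, Id3 and Sox2) and 1 fell (Egr4). The lists are not complete, since Tgif1 and Casz1, which rose as well, are on none of them. Of all 17407 genes tested, 2.81% were higher and 3.91% lower, and whether the shares of the 35 differ from these was not tested. The median log2 change of the 35 was 0.12. Several others of the 35 differed by size but missed the threshold. Irx3, a homeobox factor, measured 0.300 and 0.100 CPM in WT and 1.30 and 0.702 in cKO (log2 2.29, edgeR adjusted p = 0.074). Foxc1, a forkhead factor of meninges and vessels, measured 6.66 and 5.42 CPM in WT and 10.3 and 10.4 in cKO (log2 0.78, adjusted p = 0.0515). Nr2e1, the orphan receptor of neural stem cells, measured 16.5 and 13.4 CPM in WT and 10.3 and 10.9 in cKO (log2 -0.50, adjusted p = 0.117). Lhx6, with 21.8 and 20.3 CPM in WT and 19.5 and 24.5 in cKO, overlapped between groups. Zic5, at the largest locus and chosen after its values were seen, measured 5.36 and 4.76 CPM in WT and 14.8 and 6.77 in cKO (log2 1.09, adjusted p = 0.145).

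At E16.5 most of the log2 changes lay below 0, with 1 gene past the threshold. Of 214 tested (70.86% of the 302), 0 rose and 1 fell by edgeR, 0.467% beside 0.124% of all 16958 genes (0.0118% higher, 0.112% lower). At an unadjusted edgeR p under 0.05, 10 of the 214 were higher and 49 lower, beside 1548 and 1951 of all 16958 genes. DESeq2 called 3 higher and 17 lower of 294 members tested. It called more genes throughout, 1066 of all 33402 against 21 of 16958 by edgeR. The median log2 change was -0.37, beside -0.01 for all genes and 0.01 for genes at other H3K4me3 peaks, with 158 of 214 below 0. Groups did not overlap for 67 genes (31.3%), beside 29.2% of all genes. The ChIP-seq that chose the genes was made at 3 weeks, not at E16.5.

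The gene past the threshold was Cdc42ep1, an effector of the GTPase Cdc42. It measured 32.4, 22.7 and 22.6 CPM in WT and 6.28, 6.73 and 8.24 in cKO, so all cKO libraries lay below all WT libraries. Its change was -1.87 (SE 0.19, edgeR adjusted p = 0.0413), and no gene was called lower when any 1 of the 6 libraries was left out. Without cKO replicate 3, 1 gene was called higher.

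The size of the median rested on single libraries. Set against the WT mean on the log2 (CPM + 0.5) scale, the members' median was 0.19, -0.03 and -0.23 in the 3 WT libraries and -0.65, -0.36 and -0.0012 in the 3 cKO libraries. The groups thus overlapped, cKO replicate 3 lying among the WT libraries. The median log2 change was -0.21, -0.39 and -0.52 without WT replicate 1, 2 and 3. Without cKO replicate 1, 2 and 3 it was -0.17, -0.37 and -0.64. It stayed below 0 in all of these fits.

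Markers of other cell types differed between the E16.5 libraries. The 11 markers of meningeal and perivascular fibroblasts, which include the members Foxc1 and Col1a2, summed to 2594, 409.7 and 480.8 CPM in WT against 87.2, 107.9 and 254.6 in cKO. No marker was at 0 in every library and none of the 11 passed the test. The 9 endothelial markers summed to 571, 272 and 280.3 in WT and 206, 210.4 and 230.2 in cKO. The 13 markers of choroid plexus and ependyma, none of them a member, summed to 4957, 3352 and 48.7 in WT and 9.14, 53.8 and 2584 in cKO. Microglial markers (12) summed to 206.4, 113.3 and 122.5 CPM in WT and to 53.7, 66.8 and 83.0 in cKO, and astrocyte markers (11) to 900.3, 663.9 and 642.9 in WT and to 253.5, 430.1 and 494.2 in cKO, so both were lower in every cKO library. CA pyramidal markers (12) summed to 595, 752 and 978.5 CPM in WT and to 2595, 1206 and 781 in cKO, and the highest sum belonged to cKO replicate 1, the library with the lowest median of the members. None of these lists had a marker past the threshold. The part of these cell types in the median was not tested.

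**Figure D4:**
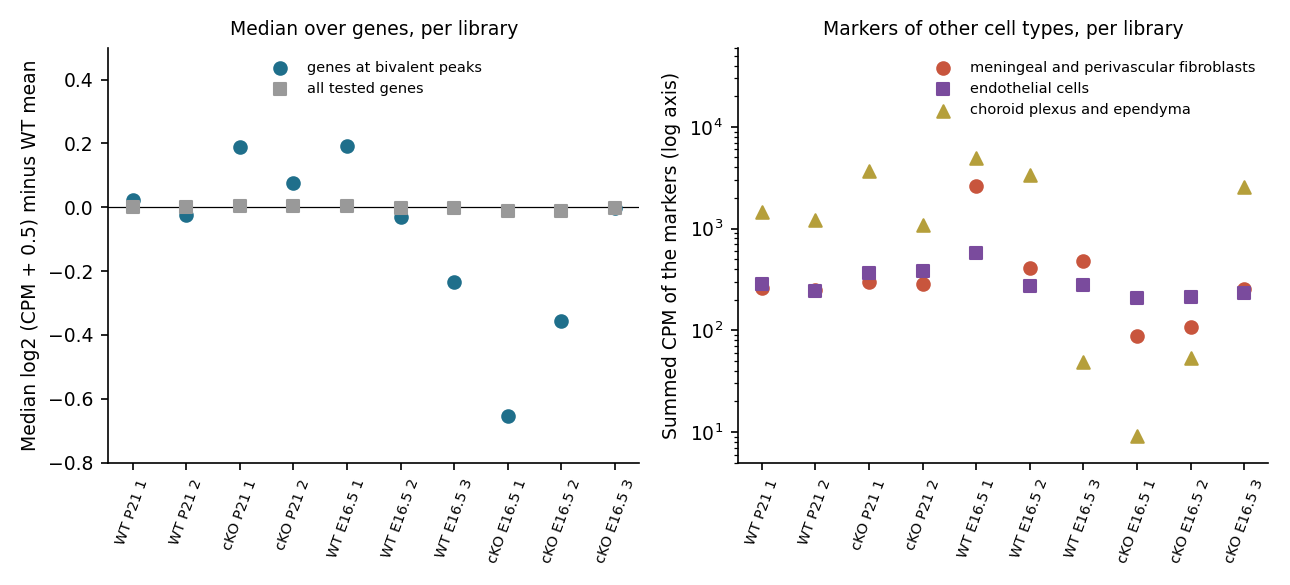
Left, the median over genes of log2 (CPM + 0.5) minus the WT mean of that age, per library, for genes at bivalent peaks (229 at P21, 214 at E16.5) and all tested genes. Right, summed CPM of 3 marker lists per library on a log axis; the highest meningeal sum, 2594, and the highest E16.5 median, 0.19, both belong to WT E16.5 replicate 1.

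Single members differed in how their libraries spread. Col1a2, a fibrillar collagen of fibroblasts, measured 336, 37.5 and 58.5 CPM in WT and 3.70, 9.22 and 26.8 in cKO, with all cKO libraries lower. Its log2 change of -3.43 (SE 1.11) had an edgeR adjusted p of 0.194. Foxc1 measured 41.5, 8.68 and 11 CPM in WT and 4.32, 5.54 and 6.15 in cKO (log2 -1.93, adjusted p = 0.196). Ikzf1, a zinc finger factor of blood lineages and microglia, measured 2.0, 1.49 and 1.38 CPM in WT and 0.337, 0.396 and 0.450 in cKO (log2 -2.02, adjusted p = 0.0975). In WT, Col1a2 and Foxc1 were several times higher in replicate 1 than in the other libraries, while the WT libraries of Ikzf1 lay close together.

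The genes called at P21 were not called at E16.5. Of the 14 that rose at P21, 10 were tested at E16.5, where 9 had a log2 change below 0 and 1 above, from -2.57 to 0.05. Of the 10 that fell at P21, all were tested, and 9 lay below 0 and 1 above. Changes below 0 were common among all members at E16.5, at 158 of 214, beside 8718 of all 16958 genes. Neither count is thus particular to the genes called at P21. Twist1, which rose at P21, measured 4.89, 0.565 and 0.923 CPM in WT and 0.224, 2.49 and 1.85 in cKO at E16.5. Its groups overlapped (log2 -0.48, edgeR adjusted p = 0.812).

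**Figure D5:**
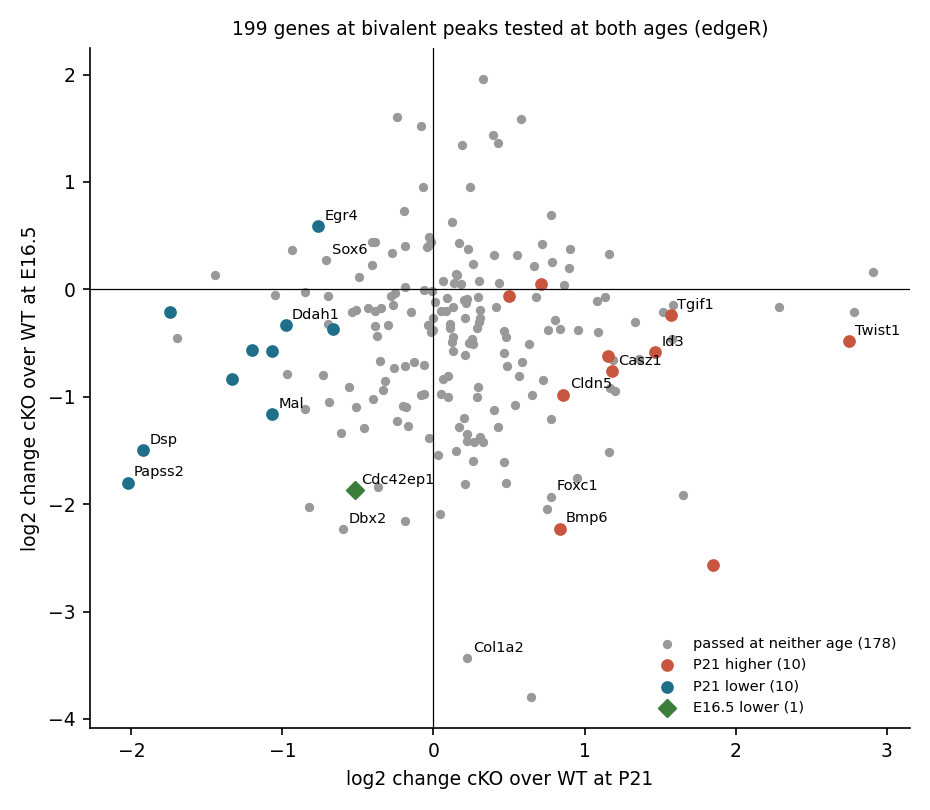
Log2 change in cKO over WT at P21 (x) and E16.5 (y) for the 199 genes at bivalent peaks tested at both ages. Coloured points passed edgeR's threshold at P21 (10 higher, 10 lower) or at E16.5 (1 lower, Cdc42ep1), and most points lie below 0 on the E16.5 axis.

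The difference in cKO effect between ages was tested in 1 fit of the 10 libraries. Of 250 genes at bivalent peaks, 2 had a higher effect at P21 and 2 a lower one (1.6%, beside 1.16% of all 18979 genes, 0.427% higher and 0.738% lower). The median difference was 0.60, beside 0.02 for all genes. Casz1 and Dbx2, a homeobox factor of the ventral neural tube, had the higher effect at P21. Sox6, a Sox factor of interneurons and glia, and Kcnn1, a calcium-activated potassium channel, had the lower one. These 4 calls rested on single libraries. Without WT E16.5 replicate 1, 2 or 3, the number of them that held was 0, 0 and 1. Without cKO E16.5 replicate 1, 2 or 3 it was 2, 0 and 4. Leaving out a P21 library leaves 1 in its group, so calls were not counted there.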

How the data were processed

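RNA-seq was measured in 10 hippocampal libraries and ChIP-seq in 8. The authors deposited estimated counts per gene, made with Salmon 1.0.0 on GRCm38 per the submitters' processing notes, and tables with log2 fold changes, p-values and a mean-level score (baseMean) from DESeq2 1.26.0 per those notes. Between 20.8% and 22.5% of count values in a library were not whole. Peaks came from Bowtie2 2.3.5.1 and MACS2 2.2.5 per the submitters' processing notes, while MACS 2.2.7.1 and a q-value cutoff of 0.01 stand in the headers. The deposited lists give a pileup signal, a fold enrichment ratio over input and -log10 p-values and q-values for each peak. Each list was called on 1 library against its genotype's input, per the file headers.

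Members, gene lists and the naming rule were chosen with earlier results of these data known. Overlaps needed 1 bp, and intervals are Wilson 95% (statsmodels 0.14.6). Starts of the RefSeq promoter table (GRCm38.p6) assigned each peak to the nearest start within 1 kb, matched by symbol to the RNA tables. Counts were rounded and tested with edgeR 4.0.16 (R 4.3.3), per age, with filterByExpr, TMM and the robust quasi-likelihood F test, Benjamini-Hochberg adjustment over all genes and a threshold of 0.05. The joint model of all 10 libraries gave the difference between ages. The code was tested on simulated counts. DESeq2 1.42.0 and other settings were alternatives.

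Named regions were the 8 with the highest WT H3K27me3 fold and up to 6 per class of marks in cKO. Named genes were Arid1a, up to 10 of the highest and lowest P21 changes past the threshold (at least 1 CPM, groups not overlapping), up to 5 each at E16.5, up to 3 differences each way, up to 3 per list, and the 10 highest WT levels at P21. Whether strand was used in counting is not stated in the labels.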

Additional observations from a re-analysis of the deposited data

Results flagged for a closer look

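For 4 genes at bivalent peaks the effect of the knockout passed the test of the difference between ages itself in edgeR. That is 1.6% of the 250 tested, beside 1.16% of all 18979 genes, a share near the background. With the replicate block all 4 calls were lost. For Casz1 the P21 effect minus the E16.5 effect was 1.90 on the log2 scale (SE 0.33, adjusted p = 0.0363): 3.11 and 2.56 CPM in WT against 6.07 and 6.77 in cKO at P21, and 3.73, 4.67 and 3.13 in WT against 2.24, 2.15 and 2.40 in cKO at E16.5. The groups did not overlap at either age, in opposite directions, but the change at E16.5 alone did not pass (edgeR adjusted p = 0.178). For Dbx2 the difference was 1.59 (SE 0.28, adjusted p = 0.0407), with 17.3 and 15.7 CPM in WT against 10.2 and 11.5 in cKO at P21, and 1.3, 1.64 and 1.74 against 0.337, 0.339 and 0.300 at E16.5. Dbx2 was thus lower in every cKO library at both ages, though it passed at neither (edgeR adjusted p = 0.0585 at P21 and 0.0684 at E16.5).

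For Sox6 the difference was -1.03 (SE 0.19, edgeR adjusted p = 0.0462). It measured 14.1 and 16.6 CPM in WT and 10.7 and 7.97 in cKO at P21, and 29.0, 31.5 and 29.3 in WT and 34, 39.4 and 35.2 in cKO at E16.5. For Kcnn1 it was -0.86 (SE 0.16, adjusted p = 0.0446), with 14.1 and 13.8 CPM in WT and 10.3 and 11 in cKO at P21, and 29.5, 31.6 and 37.4 in WT and 43.4, 44.6 and 45.8 in cKO at E16.5. Neither gene passed the threshold at a single age.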

How the results depend on the processing

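With a stricter overlap, at which 50% of the H3K4me3 peak had to be covered by WT H3K27me3, 472 sites remained bivalent. Of the genes at these sites, 6 fell at P21. The other lists also had to cover 50% of the peak here, not 1 bp. By that rule 81.78% of the 472 met cKO H3K4me3, 80.93% both marks, 0% WT H3K27ac and 6.144% cKO H3K27ac. Both changes of rule enter these shares, so they cannot be set directly beside the shares at 1 bp. With cKO lists shortened to the WT number of peaks, though not to the WT length, the shares were 94.05% for H3K27me3, 87.79% for H3K4me3 and 82.9% for both. At P21 the fit of all 10 libraries called 1 higher and 4 lower, and no filter on low counts 28 higher. Leaving out 1 library gave 4 to 28 higher and 6 to 19 lower. At E16.5 the counts higher and lower were 3 and 17 with DESeq2, which called 1066 of all 33402 genes there. They were 1 and 3 in the fit of all 10 libraries, 1 and 3 with no filter, and 0 lower with upper-quartile scaling. Leaving out 1 library at E16.5 gave 0 to 1 higher and 0 to 0 lower. For the difference between ages DESeq2 gave 13 higher and 4 lower and upper-quartile scaling 0 lower, and leaving out 1 library gave 0 to 4 higher and 0 to 2 lower. The balance of P21 calls turned from 14 higher and 10 lower to 1 and 4 in the fit of all 10 libraries, 7 and 8 without WT replicate 1 and 4 and 6 without WT replicate 2, and at E16.5 from 0 and 1 to 1 and 0 without cKO replicate 3. No named call changed its sign under an alternative. Signs were not compared for named genes that missed the threshold. The cause of the shifts in these counts was not tested.

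The replicate numbers were not taken as pairs. Deviations of same-numbered libraries from their group means correlated at 0.0282 at P21 and at -0.211, -0.00383 and -0.47 at E16.5. With 2 or 3 libraries per group such deviations are tied to one another, so these values cannot decide whether samples were paired. With the replicate block 14 genes rose and 11 fell at P21, 0 fell at E16.5, and 0 and 0 differed between ages. Of 22 named P21 calls, 22 held with DESeq2, 21 with the block and 3 in the fit of all 10 libraries. With 2 libraries per group at P21 and 1 ChIP library per genotype, depth is not the only limit on precision; counts per library were 17662335 or more.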

Other observations

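Several signalling and excitability lists had members at bivalent peaks with few calls at P21. Of 10 Wnt pathway genes, 9 were tested and 0 passed; Wnt2b, a ligand, measured 2.05 and 2.56 CPM in WT and 4.34 and 3.56 in cKO (log2 0.78, edgeR adjusted p = 0.133), and Rspo1, a secreted enhancer of Wnt signalling, 1.65 and 1.70 against 0.916 and 0.301 (log2 -1.45, adjusted p = 0.132). Of 6 BMP and TGF-beta family genes, 5 were tested and Bmp6 rose; Smad6, an inhibitory Smad, measured 1.75 and 1.70 CPM in WT and 3.09 and 2.76 in cKO (log2 0.76, adjusted p = 0.153). Of 4 collagens tested, Col27a1 fell.

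Among 6 ion channel genes 4 were tested at P21 and 0 passed. Of 5 neurotransmitter receptor genes 4 were tested and 0 passed; Drd2, the dopamine receptor of striatal neurons, measured 2.85 and 2.91 CPM in WT and 4.92 and 8.07 in cKO (log2 1.17, edgeR adjusted p = 0.0536), beside a summed 232.5 and 263.7 CPM of 12 striatal markers in WT and 310.7 and 429.8 in cKO. Gad1, the GABA-synthesising enzyme, measured 250.3 and 245 CPM in WT and 259 and 269 in cKO (log2 0.09, adjusted p = 0.622), while its bivalent peak met H3K27ac in cKO and not in WT.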
